A study of Mus musculus with 11 samples.

Results

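Clone 21, 1 of 11 clonal lines of mouse embryonic stem cells, had a stretch of chromosome 14 whose transcripts stood at about 0.5 of their level in the other 10 clones. The stretch runs in gene order from Mettl17 to Mtrf1 and is called the segment here. It was chosen by these same counts, so its low level is a description, with no test, and it supports nothing further. Of 10354 genes whose mean reached 5 CPM (counts scaled to the size of each library) over the 11 clones, 358 were on chromosome 14 and 168 of these lay in the segment.

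Messenger RNA was sequenced in each clone once, so clone 21 has no second library, and a difference between clones holds both the clone and its library. All 11 clones, clone 21 and clones 16 to 20 and 22 to 26, came from the line EBRTcH3, which makes the tetracycline-controlled transactivator from the ROSA26 promoter, and all carry several barcoded piggyBac reporters driven by the mouse PGK promoter at random sites. Cells with high eGFP were sorted and grown sparsely, and each clone goes back to 1 picked colony. The culture medium, the same for all, was 60% conditioned by BRL cells and held leukemia inhibitory factor, the MEK inhibitor PD0325901 and the GSK-3 inhibitor CHIR99021.

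Both copies of most autosomal genes are transcribed in a diploid cell, and the RNA of a gene usually scales with the number of active copies, unless feedback holds its level. Proteins that work in a complex depend on partners coded on other chromosomes, so the level of a subunit is often read beside that of its partners. Embryonic stem cells in medium with MEK and GSK-3 inhibitors are in a naive state, with low DNA methylation and some transcription of germ cell genes. DNA was not analysed here, and counts per gene do not tell 1 copy from the other. In a bulk library, fewer cells with a transcript and less of it per cell cannot be told apart either.

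Counts totalled 14195747 in clone 21 and 10846005 to 16868500 in the other 10 clones, with 16307 genes detected in clone 21 and 15910 to 16634 in the others. No pair of libraries was alike within counting noise (mean chi-square per gene 5.21 to 79.9). Pluripotency transcripts were abundant in clone 21, with Pou5f1 at 769 CPM in clone 21, against 777 to 970.3 CPM (median 869.8) in the other 10, and the 20 listed genes summed to 11205 CPM, against 10664 to 12763 CPM. Clones 16, 17 and 19 stand apart on the same chromosome. In the last 28 segment genes, from Fam160b2 to Mtrf1, their median ratios to the remaining 7 clones were 2.01, 1.85 and 1.94, so the main results there are given with and without these 3.

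Across the 168 segment genes, the median ratio of CPM in clone 21 to the median CPM of the other 10 clones was 0.498 (log2 ratio -1.0, quartiles -1.12 and -0.86). A ratio between 0.4 and 0.6 was found for 123 genes, or 73.2%. Each clone set in the same way against the rest gave a median log2 ratio of -1.0 in clone 21, and of -0.05 to 0.11 in the other 10. Against the 7 clones without 16, 17 and 19 the median ratio was 0.508. All reads of the segment, with genes of low level included, made up 0.625% of the clone 21 library (95% Clopper-Pearson interval 0.620% to 0.629%) and 1.09% to 1.38% (median 1.16%) of the other 10 libraries. The clone 21 share lay below all the others, at 0.537 of their median.

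**Figure D1:**
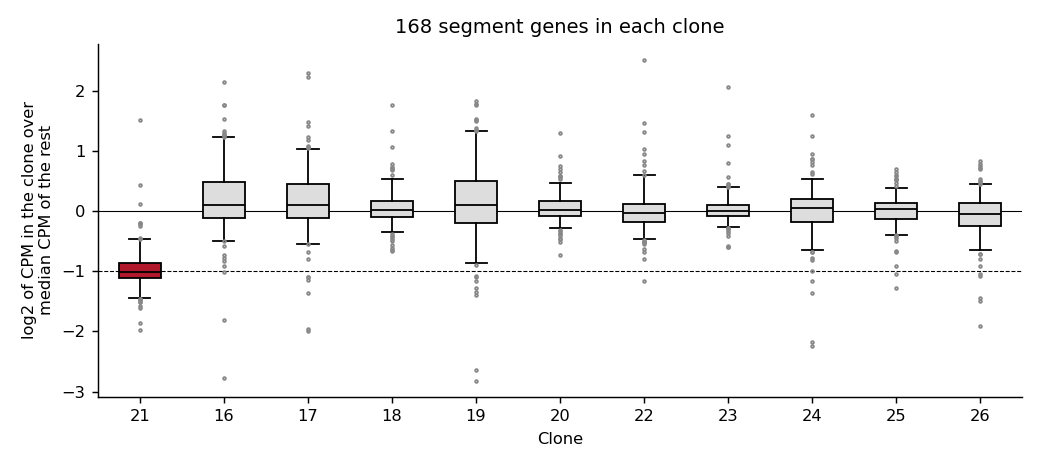
Log2 ratios of the 168 segment genes in each clone, CPM in the clone over the median CPM of the rest, with clone 21 on the left. Boxes show the quartiles with the median as a line, whiskers the 5th and 95th percentiles, and points the genes beyond them; the clone 21 median is at -1.0 and those of the other clones between -0.05 and 0.11.

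With a follow limit set at a ratio of 0.7, 155 of the 168 genes were at or below it in clone 21, where 3.74% of all genes at this level and 2.31% of the 9916 genes on other chromosomes were. Under the lowest of the other 10 clones were 144 segment genes, where 9.82% of all genes were. The other 24 were within the range of the other 10 clones and 0 were above it, where 6.2% of all genes were. These counts come from the contrast that chose the segment, and nothing is read from the difference to those shares. Of the 155, 4 were under a ratio of 0.35, so 151 lay between 0.35 and 0.7, and 13 escaped the limit.

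The 4 lowest ratios belonged to Nfatc4, Psme2, Lcp1 and Rcbtb2. Rcbtb2, a gene with a BTB domain, stood at 5.78 CPM in clone 21, against 12.2 to 55.8 CPM (median 17.2) in the other 10, a ratio of 0.337, or 0.385 without clones 16, 17 and 19, and Lcp1 had 0.329, or 0.333 without them. Close above were Dmtn, the actin-binding protein dematin, at 20.1 CPM in clone 21, against 37.3 to 118 CPM (median 57.1) in the other 10, a ratio of 0.353 or 0.386 without those 3 clones, and Mipep, a peptidase that trims imported mitochondrial proteins, at 11.2 CPM in clone 21, against 21.6 to 33 CPM (median 30.7) in the other 10. All of these were under the lowest other clone. Sorbs3, an adaptor of cell adhesions, had a ratio of 0.369 on 41 counts.

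The level changed between neighbouring genes at the start of the segment and less sharply at its end. The 5 genes before the segment were, in order, Tep1, Osgep, Apex1, Pip4p1 and Gm49342, of which the first 4 code for a telomerase-associated protein, a tRNA-modifying enzyme, a DNA repair nuclease and a phosphoinositide phosphatase. Osgep stood at 25.6 CPM in clone 21, against 24.6 to 41.1 CPM (median 31) in the other 10, a ratio of 0.826, and Apex1 at 59.1 CPM in clone 21, against 41.5 to 72.5 CPM (median 61.7) in the other 10, a ratio of 0.958; both were within the range of the other clones. Tep1 and Pip4p1 were above that range, with ratios of 1.33 and 1.15, and Gm49342 was within it at 1.14. The first segment gene, Mettl17, a mitochondrial ribosome assembly factor, stood at 10.81 CPM in clone 21, against 17.1 to 32.9 CPM (median 23.3) in the other 10, and Ndrg2 and Zfp219 had ratios of 0.45 and 0.515. At the other end, Vwa8, Naa16 and Mtrf1, a mitochondrial translation release factor, had ratios of 0.53, 0.506 and 0.485, or 0.539, 0.536 and 0.517 against the 7 clones without 16, 17 and 19. The next gene, Kbtbd7, a ubiquitin ligase adaptor, was at 6.73 CPM in clone 21, against 7.29 to 20.8 CPM (median 9.94) in the other 10. Its ratio of 0.678 was below the follow limit of 0.7 and above the ratios of Vwa8, Naa16 and Mtrf1. Its level was under all the other clones. Wbp4, a splicing factor, and Elf1, a transcription factor, followed with ratios of 0.937 and 1.06, within the range, Sugt1 with 0.767, under it, and Diaph3 with 0.97. Against the 7 clones without 16, 17 and 19, the ratios after the segment were 0.753 for Kbtbd7, 0.981 for Wbp4, 1.17 for Elf1, 0.798 for Sugt1 and 1.01 for Diaph3.

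**Figure D2:**
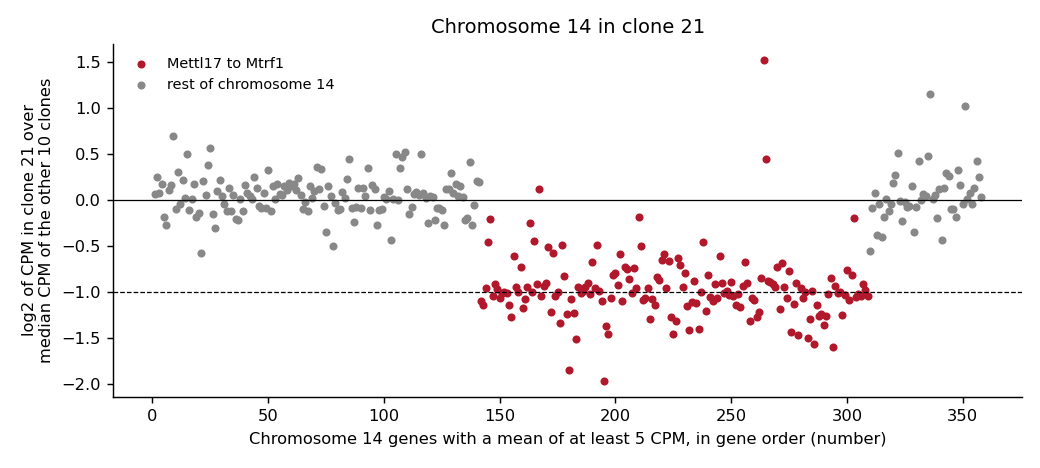
Log2 of CPM in clone 21 over the median CPM of the other 10 clones for the 358 chromosome 14 genes at the level limit, in gene order. The 168 genes from Mettl17 to Mtrf1, in red, centre on -1.0 (dashed line), and the 141 genes before and 49 after, in grey, on ratios of 1.04 and 1.0 (solid line at a ratio of 1).

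The rest of the chromosome stood near the level of the other clones. The 141 genes before Mettl17 had a median ratio of 1.04 and the 49 after Mtrf1 of 1.0, and 2 of these 190 were at or below 0.7. Set against the 7 clones without 16, 17 and 19, the medians were 1.03 and 1.0. On other chromosomes the median ratio was 0.989, with a 5th to 95th percentile range of 0.766 to 1.33.

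Along the segment the level was even. In 12 consecutive blocks of 14 genes, the median ratio in clone 21 ran between 0.419 and 0.571, the lowest in the block from Fam160b2 to Zc3h13 and the highest in that from Sdr39u1 to Sap18. The low block is one of the pair in which clones 16, 17 and 19 were high, at block medians of 0.76 to 1.0 on the log2 scale. Over the 28 genes of that pair of blocks, clone 21 stood at 0.485 of the other 10 clones, and at 0.517 of the 7 without 16, 17 and 19. Split by median CPM into 3 groups of 56 genes, the segment had median ratios of 0.504, 0.498 and 0.497 in the low, middle and high group.

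**Figure D3:**
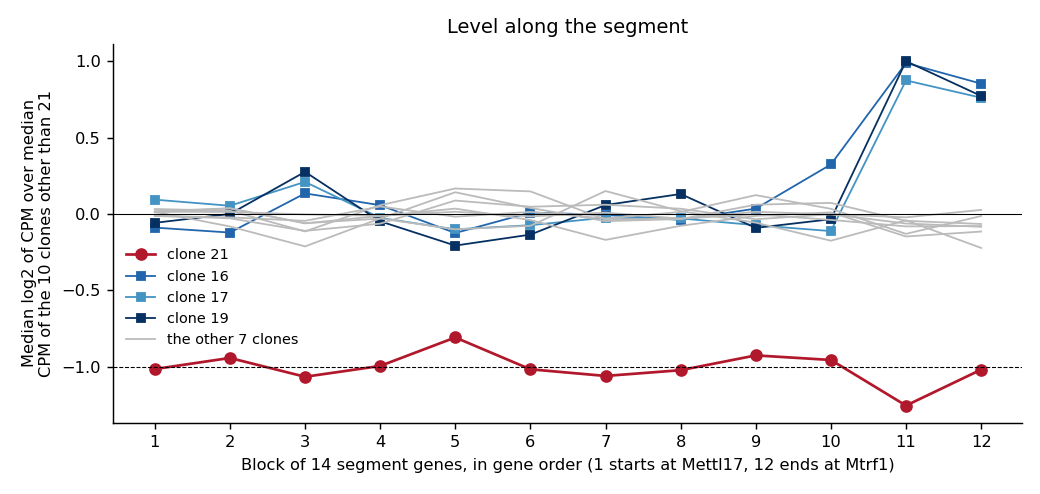
Median log2 of CPM over the median CPM of the other 10 clones, in 12 consecutive blocks of 14 segment genes, for clone 21 (red), clones 16, 17 and 19 (blue) and the remaining 7 clones (grey). Clone 21 runs between -0.81 and -1.26 in all 12 blocks, and clones 16, 17 and 19 lie between 0.76 and 1.0 in the last pair of blocks only.

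Most genes of RNA processing and export stood near the segment's median. Of 26 listed segment genes, 23 were at or below 0.7 and 25 under the lowest of the other clones, with a median ratio of 0.487. Over the whole segment these counts were 155 and 144 of 168, with a median ratio of 0.498. Neither this list nor the segment lists that follow are read as differing from the whole segment. Rnaseh2b, a subunit of the enzyme that cuts RNA out of DNA-RNA hybrids, stood at 21.6 CPM in clone 21, against 52.7 to 70 CPM (median 57.7) in the other 10, a ratio of 0.374 (95% interval 0.334 to 0.417, exact Poisson on 317 counts of clone 21, counting error only). The lowest of the other clones was at more than 2 times the clone 21 level. Mettl3, the catalytic subunit of the mRNA N6-adenosine methyltransferase, was at 15.6 CPM in clone 21, against 26.2 to 37.9 CPM (median 31.7) in the other 10, and Zc3h13, an accessory factor of the same complex, at 66.7 CPM in clone 21, against 114 to 242 CPM (median 128) in the other 10. Prmt5, the arginine methyltransferase that acts on splicing proteins, was at 101 CPM in clone 21, against 187 to 242 CPM (median 229) in the other 10. The nuclear export and import receptors Xpo7, Xpo4, Kpna3 and Ipo4 had ratios of 0.406, 0.512, 0.517 and 0.518. Without clones 16, 17 and 19, Xpo7 was at 0.424 and Zc3h13 at 0.521. Polr3d, a subunit of RNA polymerase III, and the RNA-binding protein gene Khnyn were the lowest of the list, at 0.359 and 0.363. The 3 listed genes above the limit were Hnrnpc, Acin1 and Sap18, described below.

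All 18 listed genes of chromatin and transcription at the level limit were at or below 0.7, with a median ratio of 0.516, and 17 were under the other clones. Without clones 16, 17 and 19 the number at or below 0.7 was 17, with Zfhx2 at 0.779. Supt16, the large subunit of the histone chaperone FACT, stood at 225 CPM in clone 21, against 370.02 to 529 CPM (median 465) in the other 10. The chromatin remodeller gene Chd8 was at 116 CPM in clone 21, against 179.9 to 247 CPM (median 218) in the other 10, and Tsc22d1, a leucine zipper regulator, at 204 CPM in clone 21, against 317 to 872 CPM (median 361) in the other 10; the ratio of Tsc22d1 was 0.567, or 0.58 without clones 16, 17 and 19. None of these 3 overlapped the other clones. Nfatc4, a calcium-regulated transcription factor, had the lowest ratio of the whole segment, at 6.66 CPM in clone 21, against 7.47 to 35.1 CPM (median 26.1) in the other 10, a ratio of 0.255, just under the lowest other clone. Irf9, the DNA-binding part of the interferon-activated complex ISGF3, was at 9.18 CPM in clone 21, against 15.7 to 24.8 CPM (median 21.5) in the other 10. Cebpe, Ebf2 and Egr3, factors of other lineages, had 0 counts in clone 21, which allows up to 0.204 CPM.

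Of 24 listed genes of mitochondria and metabolism, 21 were at or below 0.7, with a median ratio of 0.494, 19 were under the lowest other clone and 5 within the range. Oxa1l, which inserts proteins into the inner mitochondrial membrane, stood at 53.7 CPM in clone 21, against 103 to 150.1 CPM (median 130.2) in the other 10, a ratio of 0.412, with no overlap. Micu2, which gates the mitochondrial calcium uniporter, was at 7.75 CPM in clone 21, against 11 to 24.6 CPM (median 19.05) in the other 10. Fdft1, the squalene synthase of cholesterol synthesis, was at 18.5 CPM in clone 21, against 38.6 to 68.7 CPM (median 49.2) in the other 10. Ephx2, an epoxide hydrolase, and Ctsb, a lysosomal protease, had ratios of 0.52 and 0.46, each under the other clones. Exons of Oxa1l overlap those of Slc7a7 on the opposite strand, itself a member at 0.655, and since strand in the authors' counting is not known, reads there cannot be assigned to either gene.

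The 23 genes of protein turnover, trafficking and translation were all at or below 0.7 and all under the other clones, with a median ratio of 0.50. In the whole segment, 155 of 168 genes were at or below 0.7 and 144 under the other clones, so these counts are not read as a trait of the list. Tpt1, the translationally controlled tumour protein, was at 200.4 CPM in clone 21, against 428 to 876 CPM (median 479) in the other 10, and its ratio was 0.418, or 0.426 without clones 16, 17 and 19. Psmb5, a catalytic subunit of the proteasome, was at 45.6 CPM in clone 21, against 83.1 to 112 CPM (median 91.6) in the other 10, and Nedd8, the modifier that activates cullin ligases, at 22.3 CPM in clone 21, against 40.5 to 50.5 CPM (median 43.2) in the other 10. Psme1 and Psme2, which form the interferon-inducible proteasome activator, lie next to each other and had ratios of 0.424 and 0.276; Psme2 rests on 32 counts in clone 21. Dad1, a subunit of the oligosaccharyltransferase, had a ratio of 0.495, and Trim35 and Rcbtb1 of 0.532 and 0.474.

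Among genes of cell division, repair and signalling, 23 of 24 were at or below 0.7, with a median ratio of 0.492, 21 were under the lowest other clone and 3 within the range. Cdca2, which targets protein phosphatase 1 to chromosomes in anaphase, stood at 52.2 CPM in clone 21, against 106 to 135 CPM (median 126) in the other 10, a ratio of 0.413, far from the lowest other clone. Esco2, the acetyltransferase that establishes sister chromatid cohesion, was at 41 CPM in clone 21, against 74.9 to 124 CPM (median 90.5) in the other 10. Haus4, of the augmin complex of the spindle, and Tinf2, of the shelterin complex of telomeres, had ratios of 0.472 and 0.49. Ppp2r2a, a regulatory subunit of protein phosphatase 2A, was at 75.8 CPM in clone 21, against 135 to 182 CPM (median 161) in the other 10. Tnfrsf10b, a death receptor, was at 15 CPM in clone 21, against 26.2 to 46.5 CPM (median 34.2) in the other 10. Rec8, a meiotic cohesin subunit, and Lcp1, an actin-bundling protein, were at 0.35 and 0.329, on 29 and 17 counts in clone 21. The germ cell genes Piwil2 and Rnf17 also lie in the segment, with ratios of 0.534 and 0.575, within the range of the other clones.

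Genes outside the segment that code for partners of these proteins stood close to the other clones. Of 50 listed, 0 were at or below 0.7, 9 were under the lowest and 2 above the highest of the other 10, with a median ratio of 0.959. Of all genes on other chromosomes, 8.66% were under the lowest and 6.24% above the highest, with a median ratio of 0.989. Rnaseh2a, the catalytic partner of Rnaseh2b, was at 46.4 CPM in clone 21, against 49.5 to 91.6 CPM (median 56.6) in the other 10, just under the lowest. Rnaseh2c, the remaining subunit, was at 9.59 CPM in clone 21, against 6.39 to 24.9 CPM (median 8.73) in the other 10. Ssrp1, the partner of Supt16 in FACT, had a ratio of 0.898, and Mettl14 and Wtap, partners of Mettl3, of 0.934 and 0.99, all within the range.

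A total of 13 segment genes escaped the limit. The members just inside it were Efs, Zfhx2 and Parp4, at ratios of 0.697, 0.667 and 0.666, and those just outside were Sap18, Dhrs1 and Pck2, at 0.707, 0.711 and 0.713. For 9 of the 13, the lower Poisson bound was above 0.7. Clone 21 was under the lowest other clone for 3 of them and within the range for 10, and their median log2 SD over the other 10 clones was 0.363, against 0.267 for the genes that followed. By CPM, which also depends on the length of a transcript, 8 of the 13 were in the low group, 1 in the middle and 4 in the high group.

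The 3 that were above the limit and still under every other clone code for proteins of RNA packaging and splicing. Hnrnpc, which packages nascent RNA, stood at 318 CPM in clone 21, against 378 to 482 CPM (median 437) in the other 10, a ratio of 0.728 (95% interval 0.708 to 0.75, on 4680 counts). Acin1, a scaffold of the exon junction complex, stood at 220.2 CPM in clone 21, against 281 to 339 CPM (median 300.3) in the other 10, a ratio of 0.733 (0.708 to 0.759). Sap18, which binds Acin1 in the same complex, stood at 12.1 CPM in clone 21, against 14.9 to 21.3 CPM (median 17.1) in the other 10, a ratio of 0.707 (0.607 to 0.819). All 3 were lowered, by less than the median of the segment. Acin1 overlaps 1700123O20Rik, and Sap18 overlaps Ska3, so their counts may hold reads of a neighbour. These neighbours are segment genes with ratios of 0.53 and 0.47, and the part of their reads was not tested. Exons of another annotated gene overlap those of 74 of the 168 members, and of 8 of the 13 above the limit. Processed copies of Hnrnpc lie elsewhere in the genome, and the authors' handling of reads that match several places is unknown here.

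The other 10 were within the range of the other clones. Nefm and Nefl, neighbours that code for the medium and light neurofilament chains of neurons, had the highest ratios, 2.87 and 1.36. Nefm stood at 35.7 CPM in clone 21, against 3.12 to 71.5 CPM (median 12.5) in the other 10, and Nefl at 46.7 CPM in clone 21, against 16 to 86 CPM (median 34.5) in the other 10. In clones 20, 22 and 23 Nefm was at 30.9, 71.5 and 52.1 CPM and Nefl at 65.3, 86 and 82.6 CPM, while in clones 16 and 24 Nefm was at 3.12 and 4.73 CPM. Both genes thus varied more than 5-fold among the other clones, and clone 21 was not at either end. Their annotated exons overlap on opposite strands. Slc7a8, a transporter of neutral amino acids, was at 4.83 CPM in clone 21, against 2.65 to 11.2 CPM (median 4.46) in the other 10, a ratio of 1.08 on 71 counts. Lats2, a kinase of the Hippo pathway, was at 16.3 CPM in clone 21, against 10.2 to 25.9 CPM (median 18.6) in the other 10. Enox1, a cell surface oxidase, was at 65.2 CPM in clone 21, against 10.6 to 104 CPM (median 74.7) in the other 10; its low end is clone 19 alone, at 10.6 CPM, and the next lowest is clone 26 at 52 CPM. Its ratio was 0.874, or 0.823 without clones 16, 17 and 19. Pck2, the mitochondrial phosphoenolpyruvate carboxykinase, was at 153 CPM in clone 21, against 149.7 to 335 CPM (median 214) in the other 10, at the bottom of the range. Rpgrip1, 4931414P19Rik, Fam167a and Dhrs1 had ratios of 0.864, 0.841, 0.729 and 0.711; Rpgrip1 overlaps Supt16. Set against the 7 clones without 16, 17 and 19, 16 genes escaped in place of 13, and the 13 were all among them.

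**Figure D4:**
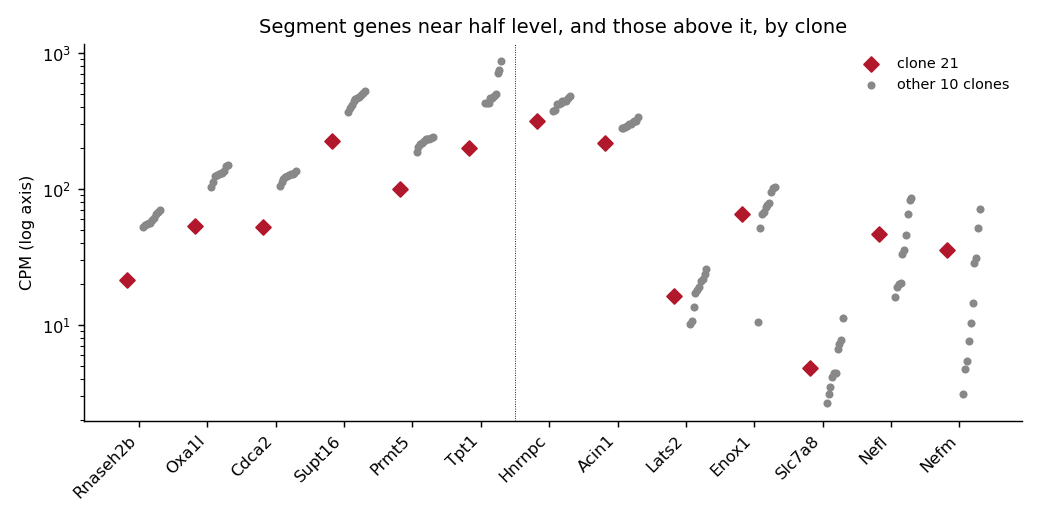
CPM on a log axis in clone 21 (red diamonds) and in each of the other 10 clones (grey points, sorted) for 6 segment genes at ratios of 0.374 to 0.485, left of the dotted line, and 7 genes above the limit, right of it. Clone 21 is below all grey points for the 6 genes and for Hnrnpc and Acin1, and within them for Lats2, Enox1, Slc7a8, Nefl and Nefm.

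Segment genes of lower level had a median ratio near the 0.498 of the 168 genes at the level limit. The 30 with a mean of 1 to 5 CPM had a median ratio of 0.487, 23 of them were at or below 0.7, and 11 under the lowest other clone. Their summed level was 47.5 CPM in clone 21, against 70.3 to 117 CPM (median 91.1) in the other 10. The same shares over all genes of 1 to 5 CPM were not counted, so nothing is read from the 23 and the 11.

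Promoters of 1 follower, 1 escaper and a pair of germ cell genes that stood high in clone 21 are shown to let a reader compare their CpG content, since germ cell promoters rich in CpG are known to be held silent by DNA methylation in most tissues. Each line gives the 250 bases before the start of the gene, 5′ to 3′ on the gene's strand, from RefSeq on GRCm38.p6, with CpG in capitals.
Oxa1l (chr14:54360591-54360840, plus strand): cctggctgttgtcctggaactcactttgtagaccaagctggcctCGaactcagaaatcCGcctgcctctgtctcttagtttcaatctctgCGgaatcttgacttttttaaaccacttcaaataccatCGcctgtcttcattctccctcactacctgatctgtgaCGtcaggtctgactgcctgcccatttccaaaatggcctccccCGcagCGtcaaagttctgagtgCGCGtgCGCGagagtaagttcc
Slc7a8 (chr14:54781887-54782136, minus strand): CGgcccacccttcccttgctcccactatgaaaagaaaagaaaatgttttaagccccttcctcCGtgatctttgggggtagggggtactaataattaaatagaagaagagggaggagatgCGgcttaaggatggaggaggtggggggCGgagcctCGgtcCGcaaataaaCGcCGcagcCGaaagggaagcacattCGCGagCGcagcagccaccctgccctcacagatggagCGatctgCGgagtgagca
Dazl (chr17:50293621-50293870, minus strand): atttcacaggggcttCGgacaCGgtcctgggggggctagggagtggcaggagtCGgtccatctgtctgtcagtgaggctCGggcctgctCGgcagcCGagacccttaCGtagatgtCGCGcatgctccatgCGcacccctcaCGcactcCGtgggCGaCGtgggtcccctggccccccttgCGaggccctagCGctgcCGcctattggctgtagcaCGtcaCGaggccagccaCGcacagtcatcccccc
Fkbp6 (chr5:135350045-135350294, minus strand): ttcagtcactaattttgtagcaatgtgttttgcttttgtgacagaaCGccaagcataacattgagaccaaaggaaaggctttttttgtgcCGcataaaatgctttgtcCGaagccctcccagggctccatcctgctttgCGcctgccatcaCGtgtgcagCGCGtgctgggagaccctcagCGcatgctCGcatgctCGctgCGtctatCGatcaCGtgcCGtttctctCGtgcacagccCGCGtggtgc

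These stretches hold 11 CpG in Oxa1l, 14 in Slc7a8, 20 in Dazl and 17 in Fkbp6. A RefSeq promoter was matched for 99 of the 155 genes at or below the limit, with a median of 15 CpG, and for 10 of the 13 above it, with a median of 20 and quartiles of 8.75 and 31.8, and over the 8223 matched genes of all 10354 at the level limit the median was 17. The letters CACGTG read the same on both strands and are the binding letters of MAX partners such as MGA, a repressor of germ cell genes. They were found in 5.05% of the 99 promoters, in 10 of 21 promoters of the germline list (47.6%) and in 9.21% of all. Among genes outside chromosome 14 that were 2-fold higher in clone 21 and above all other clones, 4 of 23 promoters (17.4%) held CACGTG. Among those 2-fold lower and under all others it was 0 of 13. Fkbp6 holds CACGTG at 2 places and Dazl at 0. The letters TCCCGC, searched on both strands and part of E2F sites, were in 25.3% of the 99, in 10 of the 21 (47.6%) and in 32.5% of all. They were in 4 of the 23 promoters of the higher genes (17.4%) and 4 of the 13 of the lower genes (30.8%). A match is a description of the letters, not of binding.

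Outside chromosome 14, clone 21 stood apart in few genes. Higher by at least 2-fold and above all the other 10 clones were 30 of 9916 genes (0.303%), on 17 chromosomes with at most 4 on 1, at ratios of 2.02 to 4.39. Lower by 2-fold and under all the others were 16 (0.161%), on 9 chromosomes, at ratios of 0.261 to 0.497. At most 4 of them were on 1 chromosome, a number reached on both chromosome 7 and chromosome 8. Against the 7 clones without 16, 17 and 19, the ratio fell short of 2-fold for 7 of the 30, among them Dpp4 and Fkbp6, and for 1 of the 16, Gata2. The same contrast was used to pick the clone's genes, so these are descriptions.

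Dazl, an RNA-binding protein of germ cells that controls translation, was the gene named with the segment. It stood at 112 CPM in clone 21, against 19.9 to 53.9 CPM (median 37.2) in the other 10, a ratio of 3.03 (95% interval 2.88 to 3.17, counting error only), more than 2-fold above the highest other clone. Other germ cell genes in the group were Sohlh2, a transcription factor of early germ cells, at 79.6 CPM in clone 21, against 10 to 62.4 CPM (median 34.8) in the other 10; Fkbp6, a factor of the piRNA pathway and meiosis, at 136 CPM in clone 21, against 24.7 to 117 CPM (median 65.7) in the other 10; and Rec114, a factor of meiotic DNA breaks, at 13.6 CPM in clone 21, against 3.43 to 12.5 CPM (median 5.54) in the other 10. Against the 7 clones without 16, 17 and 19, the ratio of Fkbp6 was 1.21 in place of 2.06, short of 2-fold, and those of Dazl, Sohlh2 and Rec114 were 3.28, 2.07 and 2.61. Magea4, a cancer-testis gene of the X chromosome, was at 24.6 CPM in clone 21, against 0.882 to 20.4 CPM (median 6.45) in the other 10. Rec114 and Magea4 are not on the germline list and are named because they stood high. Of the 25 germline genes listed outside the segment, 4 were above the highest other clone, 1 under the lowest and 20 within. Their median ratio was 1.05. Of all genes on other chromosomes, 6.24% were above and 8.66% under. Dazl, Sohlh2 and Fkbp6 were among the 4. The fourth above the range was D1Pas1, a DEAD-box helicase gene of the testis that is close in sequence to Ddx3x and may share its reads, at 154 CPM in clone 21, against 29.4 to 116 CPM (median 84.2) in the other 10, and the one under it was Sycp3, of the synaptonemal complex, at 5.24 CPM in clone 21, against 5.48 to 27.8 CPM (median 8.16) in the other 10. Listed genes outside the segment, at any level, summed to 1239 CPM in clone 21, against 843 to 1165 CPM (median 1039.9). This sum and the 4 above the range include Dazl, which was picked on this same contrast. Neither is read as a rise of the list. Kit, Hsf2bp and Ddx4 were at ratios of 0.888, 0.899 and 0.843, within the range.

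The highest ratios were those of Catip and Slc11a1, both on chromosome 1, at 4.39 and 4.19. Catip, a cilium and actin protein gene, was at 45.2 CPM in clone 21, against 2.27 to 24 CPM (median 10.3) in the other 10. Slc11a1, a divalent metal transporter of phagocytes, was at 51 CPM in clone 21, against 1.42 to 25.6 CPM (median 12.2) in the other 10. Among the other 10, both were lowest in clones 16, 19 and 25 and highest in clone 24. Exon overlap was looked up for chromosome 14 only. P2rx7, an ion channel opened by ATP, was at 209 CPM in clone 21, against 19.3 to 101 CPM (median 60.3) in the other 10, a ratio of 3.47. Dpp4, a cell surface peptidase, was at 81.8 CPM in clone 21, against 9.93 to 61.2 CPM (median 31.5) in the other 10, and Grhl2, an epithelial transcription factor, at 25.7 CPM in clone 21, against 5.11 to 15.4 CPM (median 9.11) in the other 10. Against the 7 clones without 16, 17 and 19, the ratio of Dpp4 was 1.89 in place of 2.59, short of 2-fold. Each of these was above all other clones, and each ranged over more than 2-fold among them. Slc13a5, a citrate transporter, Kctd19, Tmem40, Gm364 and Myom2 had ratios of 2.64, 2.94, 3.31, 3.55 and 2.64. Pycr1, of proline synthesis, was at 121 CPM in clone 21, against 44.3 to 78.4 CPM (median 59.7) in the other 10.

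Among the lower genes, the metallothioneins Mt2 and Mt1, neighbours on chromosome 8 that bind zinc and copper, came with the most counts. Mt2 was at 109.8 CPM in clone 21, against 198 to 536 CPM (median 338) in the other 10, a ratio of 0.325, and Mt1 at 64.1 CPM in clone 21, against 97.6 to 245 CPM (median 179) in the other 10, a ratio of 0.357. Both were under every other clone; the genes are close in sequence, and reads may be shared between them. Lgals1, a galectin, was at 13.3 CPM in clone 21, against 17.1 to 97.1 CPM (median 35.6) in the other 10, and Cdc6, which loads the replicative helicase, at 26.5 CPM in clone 21, against 27.9 to 72.6 CPM (median 56) in the other 10, just under the lowest. Lrrc15, at 1.9 CPM in clone 21, against 2.89 to 107 CPM (median 5.8) in the other 10, and Mbp, at 3.67 CPM in clone 21, against 4.65 to 43.8 CPM (median 9.45) in the other 10, each have a high end set by clone 19 alone. Agpat4, Rcn3, Clip3, Prag1, C1s1, Hpn and 1500009L16Rik, had ratios of 0.334, 0.349, 0.354, 0.394, 0.399, 0.412 and 0.261.

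**Figure D5:**
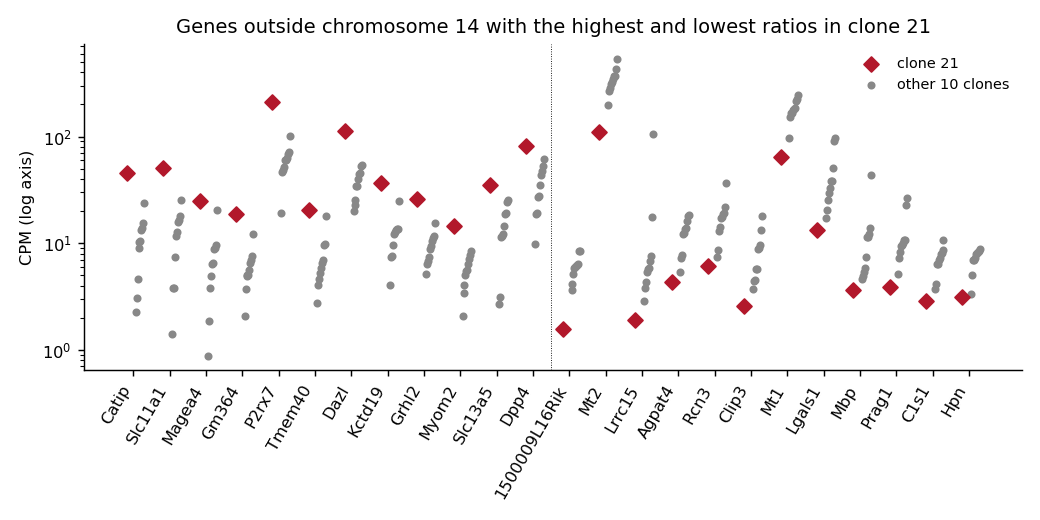
CPM on a log axis in clone 21 (red diamonds) and in each of the other 10 clones (grey points, sorted) for the 12 genes outside chromosome 14 with the highest ratios, left of the dotted line, and the 12 with the lowest, right of it. Clone 21 is above all grey points on the left, at 3.03 times the median for Dazl, and below all of them on the right, at 0.325 of the median for Mt2.

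Markers of other cell types that a culture could hold were compared over the genes outside the segment. The 12 fibroblast markers summed to 21.1 CPM in clone 21, against 13 to 30.4 CPM, with Dcn, Lum, Postn and S100a4 at 0 in clone 21. The primitive endoderm markers summed to 543 CPM, against 412 to 754 CPM, and the neural markers, without Nefm and Nefl, to 82.6 CPM, against 51.7 to 124 CPM. These 3 sums lay within the range of the other clones. The 8 trophoblast markers summed to 64.8 CPM, against 67.1 to 129.7 CPM, under the lowest other clone, with Elf5 at 0 in clone 21. The part of these cell types in the results was not tested.

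The remaining lists are given beside all genes on other chromosomes, of which 8.66% were under the range of the other clones and 6.24% above it. Nothing is read from the difference between the counts of these lists and those shares. Of 20 pluripotency genes, 19 were within the range of the other clones, with a median ratio of 0.928, and Pou5f1 was just under it. Lin28a, an RNA-binding protein that blocks let-7 maturation, was at 178 CPM in clone 21, against 49.8 to 445 CPM (median 281) in the other 10, within the range. Of 8 interferon and nucleic acid sensing genes outside the segment, 6 were within the range, with a median ratio of 1.08. Samhd1, which degrades deoxynucleotides, was under it at 37.7 CPM in clone 21, against 40.4 to 55.1 CPM (median 49.8) in the other 10, and Oas2, a sensor of double-stranded RNA, above it at 12 CPM in clone 21, against 3.93 to 11.5 CPM (median 8.98) in the other 10. Of 17 p53 targets outside the segment all 17 were within the range, with a median ratio of 0.952. Eif1a, the 1 gene of the 2-cell-like list at the level limit, had a ratio of 0.859.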

How the data were processed

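The authors deposited 1 table of raw counts, whole numbers of reads per gene, for 22369 mouse Ensembl gene IDs in 11 libraries; 0 lines were not genes and 0 columns lacked a label. Per the labels' protocols, RNeasy total RNA went into TruSeq RNA libraries. The submitters' processing notes name TopHat 1.4.0, Bowtie 0.12.7 and the builds mm9 and hg19. Neither the counting tool nor its strand setting is known. GENCODE vM21, on the later build GRCm38, served for symbols, chromosomes, gene order and exon overlaps. An overlap in it need not hold in the annotation that the authors counted on. In all, 1592 IDs without a chromosome held 0.401% of counts.

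CPM used TMM library sizes (edgeR 4.0.16 in R 4.3.3), and genes needed a mean CPM of 5 or more. A ratio is CPM in clone 21 over the median of the other 10 clones. With 1 library there is no test; intervals are 95% exact Poisson or Clopper-Pearson and cover counting error only. The detection floor of 3 counts is 0.204 CPM in clone 21 and 0.173 to 0.284 CPM in the others. DESeq2 1.42.0 gave size factors for an alternative, and the rest ran in Python 3.11.15 with pandas 2.3.3, NumPy 2.4.6, SciPy 1.17.1 and matplotlib 3.10.9. The calculation was tested on simulated data.

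The segment, its limits and the 15 gene lists (339 of 350 genes in the table) were chosen with earlier results of these data known. Named are the 4 genes given with the segment, the 10 members with the highest CPM, the 12 with the highest and the 12 with the lowest ratio, 3 members at each end and 5 genes beyond each, 3 on each side of the limit, outside chromosome 14 the 12 highest and 12 lowest, and in each list the 3 most abundant and up to 4 outside the range. Others named by role or place in a list, such as Mettl3, Esco2, Psmb5, Rec114 and Pycr1, were chosen after their values were seen. Alternatives were other scalings, the mean in place of the median, a pseudocount of 1 CPM, other level limits and leaving out clones. A partner gene that the rule names is not reported here.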

Additional observations from a re-analysis of the deposited data

Results flagged for a closer look

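For 16 of 127 named genes and measures, 1 of the other 10 clones lay far from the remaining ones. Its gap to its neighbour was above Dixon's 95% critical value for 10 samples. Chance alone gives this in about 1 in 20 for normally distributed values. The values here were CPM, which need not be so distributed, and many of the genes were named for their ratios. That rate may therefore not apply, and the 16 are a description. Among segment genes, clone 16 was high for Akap11 (240 CPM) and Sorbs3 (17.8 CPM), clone 19 was high for Rec8 (13.2 CPM), clone 22 was low for Kctd9 (40.3 CPM) and clone 24 was low for Phf11d (48.8 CPM). Next to the segment, clone 17 was high for Osgep (41.1 CPM).

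Among genes higher in clone 21 outside chromosome 14, the highest other clone was clone 17 for Kctd19 (25.03 CPM), clone 22 for Magea4 (20.4 CPM) and clone 26 for Tmem40 (17.8 CPM). Among the lower genes, clone 19 was high for Lrrc15 (107 CPM) and Mbp (43.8 CPM), and clone 17 for Rcn3 (36.3 CPM). In the lists, clone 16 was high for Adar (225 CPM), clone 17 for Kit (288 CPM) and clone 22 for Rnaseh2a (91.6 CPM), and clone 19 was low for Oas2 (3.93 CPM). None of these clones is clone 21, and the cause was not tested.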

How the results depend on the processing

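With 1 library of clone 21, the spread within the clone is unknown, and counting error is wide for genes of low level. All 11 clones share 1 design group, and no paired analysis was possible because each clone number occurs once. The segment median log2 ratio of -1.0 became -0.95 with plain total counts and -0.95 with a pseudocount of 1 CPM, and under the other alternatives ran from -1.05 to -0.98. The counts of segment genes (155 and 144) and the share ratio of 0.537 moved by less than 1.5 times under every alternative. Outside chromosome 14, the lower genes numbered 25 in place of 16 with the mean of the other clones. Without clones 16, 17 and 19 there were 46 higher and 29 lower genes; with a level limit of 1 CPM 88 and 61; with 20 CPM 9 and 5; with no limit 321 and 159. The limit sets how many genes are counted, and for the other settings the cause was not tested. Leaving out each other clone in turn gave medians of -1.01 to -0.98, 154 to 159 and 143 to 147 segment genes, share ratios of 0.535 to 0.538, and 26 to 40 higher and 14 to 23 lower genes. Of 2000 values for named genes under 16 alternatives, 1995 moved by less than the spread between clones, and 5 moved by more. The sign changed in 23 of these values, of 11 genes whose log2 ratio was at most 0.17 in size, Slc7a8 among them at -0.20 with the mean of the other clones; no gene outside the range of the other clones did so. The median of all genes on other chromosomes stayed within 0.04 of 0 on the log2 scale.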
